A study of Mus musculus with 9 samples.

Results

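Msx1 and Msx2, 2 of the 32289 features of the count matrices, were taken by their gene symbols in each of 9 single-cell RNA-seq libraries of mouse forelimb buds. The libraries were made at E10.75 (37 to 39 somites), 3 per genotype, and each came from a pair of forelimb buds. Wt embryos were set beside embryos homozygous for 1 of 2 germline deletions of enhancers of Grem1, the gene of a secreted BMP antagonist, in a Swiss Albino background. E1C8Δ/Δ (labelled EC1CRM8Δ/Δ) and E1C5Δ/Δ (EC1CRM5Δ/Δ) share the EC1 deletion and differ in the further enhancer region that is missing, so that neither removes Grem1 itself, and as germline deletions they are carried by every cell of the embryo. By the study's methods the 3 libraries of a genotype are biologically independent and embryos of both sexes were used. Neither Msx gene was used to define a class of cells.

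Msx1 and Msx2 encode closely related homeodomain transcription factors that act mainly as repressors. Both genes respond to BMP signalling and are used as readouts of it in the limb bud, where BMP ligands from mesenchyme and ectoderm act through type I and type II receptors and SMAD1/5/9. In the early limb bud the genes are known for expression in anterior and distal mesenchyme and in the ectoderm, including the apical ectodermal ridge, the strip of distal ectoderm that secretes FGFs. GREM1 binds BMP2, BMP4 and BMP7 and keeps them from their receptors, and the comparison of the genotypes asks how the levels of the Msx genes differ where less Grem1 is made.

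Both genes lie on the minus strand, Msx1 at chr5:37820485-37824583 and Msx2 at chr13:53466884-53473074 (mm10, GENCODE M21). The spliced transcripts have 2 exons each and are 1935 and 2453 bases long. Bases upstream of the RefSeq start sites are shown because they bear on whether the promoters of these genes share short motifs. They were taken from the RefSeq promoter table (GRCm38.p6, the build of mm10), in which both genes were found. For Msx1 the 250 bases upstream of the start are given, at chr5:37824586-37824835. For Msx2 only 30 bases are given, since the RefSeq window lies inside the first exon of the longest GENCODE model. They lie 171 to 200 bases upstream of the RefSeq start, at chr13:53472951-53472980, and were picked as a stretch with the most bases in motif matches. Capitals mark CCAAT, the letters of the CCAAT box, and TAAT, the core that homeodomains bind, on either strand (ATTGG and ATTA).
Msx1: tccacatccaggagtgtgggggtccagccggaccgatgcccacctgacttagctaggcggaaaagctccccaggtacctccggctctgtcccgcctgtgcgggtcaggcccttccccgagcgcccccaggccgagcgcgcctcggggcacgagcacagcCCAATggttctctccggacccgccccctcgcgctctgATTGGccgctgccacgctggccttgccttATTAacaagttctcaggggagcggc
Msx2: ctgactgctcctgTAATTAactccTAATtt
In the full 250 bases CCAAT was found 2 times for Msx1 and 1 time for Msx2, and 33.8% of 32851 promoters of that length hold it. TAAT was found 1 time for Msx1 and 5 times for Msx2, with 54.9% of promoters holding it, and some matches overlap (TAATTA reads TAAT on both strands). GGCGCC, a GC-rich element that SMADs bind, was found in neither window and in 9.59% of all promoters. A match is a description of these letters only.

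The libraries held 2571 to 28480 barcodes and 26620760 to 500559729 UMIs (unique molecular identifiers, 1 per captured transcript). After the filters 42015 cells were used, 539 to 7788 per library, with a median of 16896 to 47628 UMIs per cell. The smallest libraries were E1C8Δ/Δ replicate 1 and Wt replicate 3. All 3 Wt libraries were male by Xist and Y-linked genes, whereas 2 of 3 libraries of each mutant were female, so that sex and genotype are partly confounded. Wt replicate 1 and E1C8Δ/Δ replicate 3, called male, also held 21.7 and 7.80 CPM of Xist, and E1C8Δ/Δ replicate 1, called female, held 2.71 CPM of Y-linked genes, against 0.0851 CPM of Xist or less in the other male libraries. Between 2 and 172 barcodes were shared by each of the 36 pairs of libraries, at most 0.901% of the smaller library. Grem1 in mesenchyme was at 43.3, 29.1 and 34.6 CPM in Wt, 11.3, 11.2 and 14.8 CPM in E1C8Δ/Δ and 18.3, 16.6 and 25.4 CPM in E1C5Δ/Δ, and the 6 mutant libraries lay below all Wt libraries, with a log2 difference of -1.15 (SE 0.14, adjusted p = 0.00478). Tbx5, which marks forelimb mesenchyme, was at 99.8 to 136 CPM in mesenchyme, against 0.154 to 0.613 CPM for the hindlimb gene Pitx1. Tbx5 is among the genes of the mesenchyme gate, which sets its level there in part. All levels below are CPM, UMIs of the gene scaled to 1000000 UMIs of a class, summed per library. Such sums do not tell more expressing cells from more RNA per cell. Tests are edgeR's quasi-likelihood test adjusted by the Benjamini-Hochberg method over every gene tested in the class, and a gene is called at an adjusted p of 0.05 or less.

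In Wt mesenchyme, the Prrx1-positive connective tissue and skeletal progenitors, the Msx genes differed in where they were highest. Cells were ranked in each library by scores of the study's positional genes (Hand2, Osr1, Shh and Prdm1 for posterior, Alx4, Boc, Pax1 and Sox6 for anterior, Cyp26b1, Sall3, Lmo2 and Wnt5a for distal, Rarb, Irx3, Meis2 and Pkdcc for proximal) and cut at the ranks of terciles along each axis, which gives 9 positions. Cells with tied scores stayed together, so that an anterior-posterior tercile did not hold the same share of cells in every library. The anterior tercile held 33.1% to 33.3% of mesenchymal cells in Wt, 31.3% to 33.4% in E1C8Δ/Δ and 25.4% to 33.1% in E1C5Δ/Δ, and the posterior tercile 32.6% to 34.4%, 28.4% to 32.7% and 32% to 37.2%. With ties split at random into equal terciles, 68 of 70 results kept their direction and side of the threshold. A tercile is a rank and not a measured place, and 8.10% to 22.7% of the mesenchymal cells of a library lay within 5 percentiles of a cut along the anterior-posterior axis. Where groups are said to lie apart, the values are only described. The share of all genes that lay apart was taken only for each mutant against Wt at the 9 positions. There 14.9% to 16.9% of genes of at least 5 CPM lay above Wt in every E1C8Δ/Δ library, and 3.86% to 6.46% in every E1C5Δ/Δ library.

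Msx1 was highest in distal anterior cells, at 313 ± 59.8 CPM (SD, n = 3), and this level did not overlap that of the next position, distal middle (185 ± 26.9 CPM). The order went on with central anterior (160.1 ± 42.5), proximal anterior (128 ± 28.4), distal posterior (122 ± 21), central middle (87.7 ± 31.7), proximal middle (68.4 ± 13.8) and central posterior (43.1 ± 14.6) to proximal posterior cells (26.2 ± 2.55 CPM). These neighbours overlapped in their ranges over the 3 libraries, except that all central posterior values lay above all proximal posterior values. In Wt the log2 difference of the posterior to the anterior tercile was -1.59 (SE 0.070, adjusted p = 4.49e-14), and the distal tercile was above the proximal tercile by 1.27 (SE 0.076, adjusted p = 3.41e-10). Such differences are common along these axes, since 32.1% of 14553 genes were called between the posterior and anterior terciles and 48.3% of 14810 between the distal and proximal terciles.

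Msx2 had its highest Wt level in proximal anterior cells (78.3 ± 26 CPM), followed by distal anterior (50.4 ± 14.8), central anterior (41 ± 4.45) and proximal middle cells (34.1 ± 3.99), and these neighbours overlapped. Central middle (22.2 ± 4.82) and distal middle (19.4 ± 6.57) came next, and the posterior positions were lowest, from proximal posterior (17.3 ± 4.99) through central posterior (13.8 ± 0.654) to distal posterior (12.6 ± 1.14 CPM). The step from proximal middle to central middle was the only one among these positions without overlap. Along the anterior-posterior axis Msx2 went the same way as Msx1, with a log2 difference of posterior to anterior of -1.98 (SE 0.095, adjusted p = 1.68e-13). Along the proximal-distal axis it went the other way, with a log2 difference of the distal to the proximal tercile of -0.87 (SE 0.22, adjusted p = 0.00318).

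**Figure D1:**
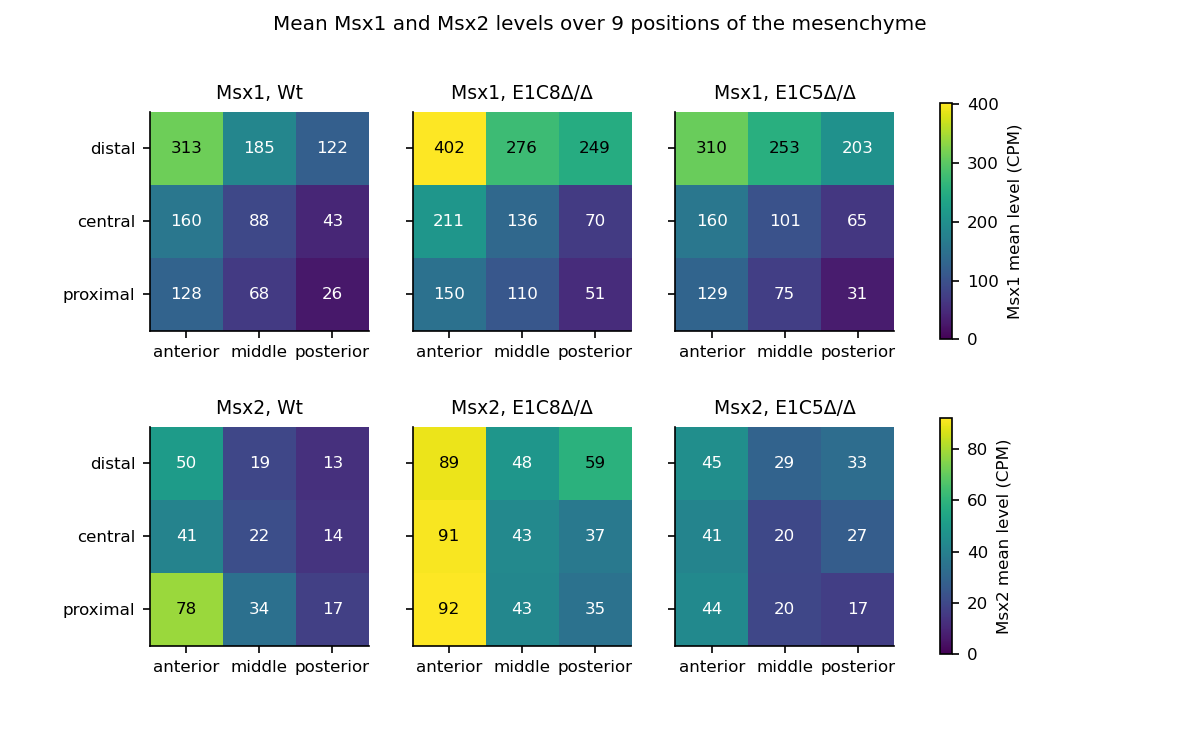
Mean level in CPM (colour and printed value, n = 3 libraries) of Msx1 (upper row) and Msx2 (lower row) at 9 mesenchymal positions, anterior to posterior along x and proximal to distal along y, in Wt, E1C8Δ/Δ and E1C5Δ/Δ. In Wt Msx2 is lowest at the 3 posterior positions, and distal posterior Msx2 goes from 12.6 CPM in Wt to 58.8 CPM in E1C8Δ/Δ and 32.7 CPM in E1C5Δ/Δ.

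In mesenchyme as a whole, both genes rose in E1C8Δ/Δ and neither was called in E1C5Δ/Δ. Msx1 was at 152, 115 and 114 CPM in Wt, 199, 178 and 181 CPM in E1C8Δ/Δ and 124, 159 and 169 CPM in E1C5Δ/Δ. All E1C8Δ/Δ libraries lay above all Wt libraries, and the E1C5Δ/Δ libraries overlapped Wt. Msx2 was at 28.3, 32.6 and 38.3 CPM in Wt, 61.9, 66 and 51.5 CPM in E1C8Δ/Δ and 27.8, 35.5 and 30.1 CPM in E1C5Δ/Δ. The E1C8Δ/Δ libraries again lay above Wt without overlap, and the E1C5Δ/Δ libraries fell within or just below the Wt range. In E1C8Δ/Δ the log2 fold change was 0.53 (SE 0.12, adjusted p = 0.0251) for Msx1 and 0.83 (SE 0.13, adjusted p = 0.00691) for Msx2, beside 9.10% of 16104 genes called in that comparison. In E1C5Δ/Δ it was 0.30 (SE 0.12, adjusted p = 0.293) for Msx1 and -0.024 (SE 0.13, adjusted p = 0.969) for Msx2, with 1.34% of genes called. With both mutants together neither gene passed, at 0.42 (SE 0.11, adjusted p = 0.0720) for Msx1 and 0.41 (SE 0.12, adjusted p = 0.0963) for Msx2, with 2.05% called.

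The joint comparison of mesenchyme sat near the threshold. Both genes passed with DESeq2, at 0.42 (adjusted p = 0.00817) for Msx1 and 0.41 (adjusted p = 0.0279) for Msx2, and other fits gave further calls. Msx1 passed without the filter on low counts and with thinned counts (0.42 to 0.53, adjusted p = 0.0329 to 0.0427) and without Wt replicate 1 (adjusted p = 0.0428), and Msx2 with thinned counts (0.49, adjusted p = 0.0426). The call of Msx1 in E1C8Δ/Δ was lost with sex as a covariate, without the 2 smallest libraries and in the male libraries (0.42 to 0.60, adjusted p = 0.0831 to 0.374) and without Wt replicates 2 or 3 or E1C8Δ/Δ replicates 1, 2 or 3 (adjusted p = 0.0555 to 0.0886). The Msx2 call in E1C8Δ/Δ was lost only in the male libraries, where 1 E1C8Δ/Δ and 1 E1C5Δ/Δ library remain (0.68, adjusted p = 0.318). Markers of other cell types were low in mesenchyme, in part because cells that met another lineage by these markers were left out. Those of muscle moved with E1C8Δ/Δ. Summed over 5 genes, muscle markers were at 3.21 to 4.34 CPM in Wt, 4.53 to 9.45 CPM in E1C8Δ/Δ and 3.03 to 5.76 CPM in E1C5Δ/Δ, with every E1C8Δ/Δ library above every Wt library. The 8 ectoderm markers were at 6.16 to 7.38 CPM in Wt, 6.90 to 9.03 CPM in E1C8Δ/Δ and 4.38 to 5.84 CPM in E1C5Δ/Δ, with every E1C5Δ/Δ library below every Wt library. The 6 endothelial markers were at 2.01 to 4.32 CPM in Wt, 3.08 to 5.22 CPM in E1C8Δ/Δ and 1.89 to 2.75 CPM in E1C5Δ/Δ, and the 6 erythroid markers at 3.15 to 9.0 CPM in Wt, 1.42 to 3.27 CPM in E1C8Δ/Δ and 2.63 to 10.00 CPM in E1C5Δ/Δ. Their part in the differences was not tested.

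**Figure D2:**
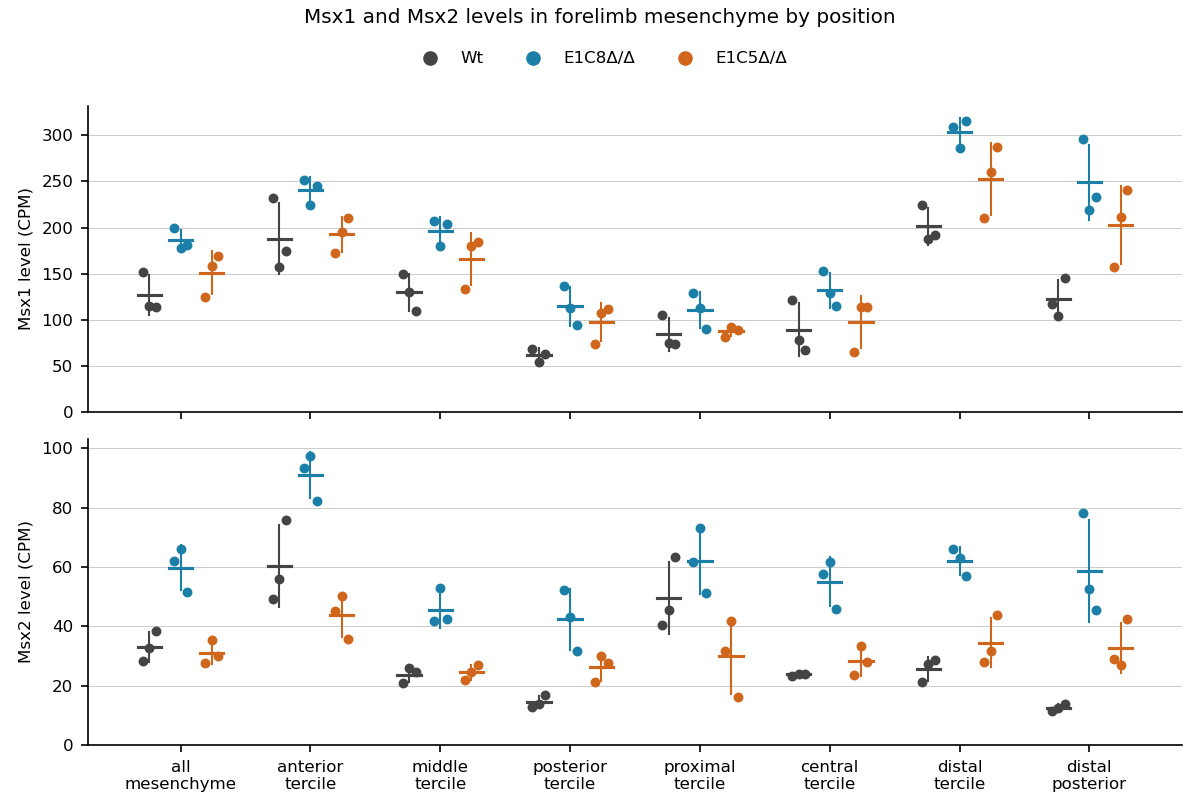
Msx1 (upper panel) and Msx2 (lower panel) levels in CPM per library in all mesenchyme, in terciles along both axes and in distal posterior cells. Points are libraries, horizontal bars are group means and vertical lines are SD (n = 3), and the posterior tercile and distal posterior cells are the classes in which all 6 mutant libraries lie above all Wt libraries for both genes.

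In the posterior tercile both genes rose in both mutants. Msx1 was at 68, 53.6 and 63.1 CPM in Wt, 137, 112 and 94.3 CPM in E1C8Δ/Δ and 74, 107 and 111 CPM in E1C5Δ/Δ. Msx2 was at 12.8, 14 and 16.8 CPM in Wt, 52.3, 43.2 and 31.8 CPM in E1C8Δ/Δ and 21.1, 29.98 and 27.8 CPM in E1C5Δ/Δ. For both genes all 6 mutant libraries lay above the highest Wt library, and for Msx2 the E1C8Δ/Δ libraries also lay above the E1C5Δ/Δ libraries. Both mutants together differed from Wt by 0.79 (SE 0.13, adjusted p = 0.0148) for Msx1 and by 1.21 (SE 0.15, adjusted p = 0.00363) for Msx2, where 1.51% of 13979 genes were called. In E1C8Δ/Δ alone the values were 0.86 (SE 0.15, adjusted p = 0.00751) and 1.51 (SE 0.17, adjusted p = 0.00130), beside 8.21% called. In E1C5Δ/Δ alone they were 0.71 (SE 0.15, adjusted p = 0.0462) and 0.92 (SE 0.17, adjusted p = 0.0286), beside 0.880% called.

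With sex as a covariate Msx1 was at 0.79 (adjusted p = 0.128) and Msx2 at 1.19 (adjusted p = 0.0790), neither of them called. In the male libraries the values were 0.77 (adjusted p = 0.154) and 1.16 (adjusted p = 0.0768). Of the genes of the scores, Shh, Hand2 and Wnt5a are named by the study as changed in the mutants, and with scores that leave them out Msx1 was at 0.69 (adjusted p = 0.202) and Msx2 at 0.76 (adjusted p = 0.113). Without the 2 smallest libraries Msx1 was at 0.74 (adjusted p = 0.0805) and Msx2 remained called at 1.23 (adjusted p = 0.0171), and Msx1 was also lost without Wt replicate 2 (0.71, adjusted p = 0.0674). In E1C8Δ/Δ alone the call of Msx1 was lost with sex as a covariate, with scores without the changed genes and in the male libraries (0.64 to 0.87, adjusted p = 0.0512 to 0.284). That of Msx2 was lost in the male libraries (1.16, adjusted p = 0.0860). In E1C5Δ/Δ alone the call of Msx1 was lost with sex as a covariate, with doublets kept, with scores without the changed genes, without the 2 smallest libraries and in the male libraries (0.58 to 0.90, adjusted p = 0.0787 to 0.533) and without Wt replicates 1, 2 or 3, E1C8Δ/Δ replicates 1, 2 or 3 or E1C5Δ/Δ replicates 2 or 3 (adjusted p = 0.0510 to 0.147). That of Msx2 in E1C5Δ/Δ was lost with sex as a covariate, with doublets kept, with scores without the changed genes, without the 2 smallest libraries and in the male libraries (0.50 to 1.15, adjusted p = 0.0557 to 0.529) and without Wt replicates 1, 2 or 3, E1C8Δ/Δ replicate 2 or E1C5Δ/Δ replicates 2 or 3 (adjusted p = 0.0513 to 0.0890). Genes of the posterior score moved in this tercile as well. Hand2 was at 299.8 to 323 CPM in Wt, 237 to 288 CPM in E1C8Δ/Δ and 219 to 296 CPM in E1C5Δ/Δ, with all 6 mutant libraries below all Wt libraries. Osr1 was at 53.6 to 81.9 CPM in Wt, 59 to 77.7 CPM in E1C8Δ/Δ and 28.7 to 37.7 CPM in E1C5Δ/Δ, with E1C5Δ/Δ below both other groups. Shh was at 11.8 to 22.8 CPM in Wt, 9.15 to 21.1 CPM in E1C8Δ/Δ and 7.66 to 17 CPM in E1C5Δ/Δ, and Prdm1 at 9.13 to 16.6 CPM in Wt, 11.9 to 20.7 CPM in E1C8Δ/Δ and 10.04 to 23.4 CPM in E1C5Δ/Δ, with overlap between the groups. The part of these genes in the Msx differences was not tested.

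In the anterior tercile no call was made against Wt. Msx1 was at 232, 158 and 175 CPM in Wt, 252, 225 and 245 CPM in E1C8Δ/Δ and 173, 195 and 210.2 CPM in E1C5Δ/Δ, where each mutant overlapped Wt and all E1C8Δ/Δ libraries lay above all E1C5Δ/Δ libraries. Msx2 was at 49.2, 56 and 75.8 CPM in Wt, 93.3, 97.4 and 82.3 CPM in E1C8Δ/Δ and 45.1, 50.4 and 35.8 CPM in E1C5Δ/Δ. The E1C8Δ/Δ libraries lay above all Wt libraries, while E1C5Δ/Δ replicates 1 and 3 lay below all of them and replicate 2 overlapped Wt. The log2 fold change of both mutants was 0.22 (SE 0.11, adjusted p = 0.310) for Msx1 and 0.10 (SE 0.15, adjusted p = 0.774) for Msx2 (0.745% of genes called). It was 0.35 (SE 0.12, adjusted p = 0.114) and 0.60 (SE 0.17, adjusted p = 0.0658) in E1C8Δ/Δ (4.79% called). In E1C5Δ/Δ it was 0.093 (SE 0.12, adjusted p = 0.815) and -0.39 (SE 0.17, adjusted p = 0.348), beside 0.844% called. Calls in E1C8Δ/Δ were made for Msx2 with DESeq2, without the filter on low counts, with gates on all UMIs, with thinned counts, with one cut for all libraries and with scores without the changed genes (0.58 to 0.72, adjusted p = 0.00904 to 0.0413) and without Wt replicate 3 or E1C5Δ/Δ replicate 3 (adjusted p = 0.0292 to 0.0344). For Msx1 a call was made without Wt replicate 1 (adjusted p = 0.0436).

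In the middle tercile E1C8Δ/Δ was called for both genes and E1C5Δ/Δ for neither. Msx1 was at 149.8, 130.3 and 109 CPM in Wt, 207, 179.9 and 203 CPM in E1C8Δ/Δ and 134, 180.3 and 184 CPM in E1C5Δ/Δ. Msx2 was at 20.8, 25.8 and 24.5 CPM in Wt, 41.7, 52.8 and 42.4 CPM in E1C8Δ/Δ and 22, 24.5 and 27 CPM in E1C5Δ/Δ. For both genes E1C8Δ/Δ lay above Wt without overlap and E1C5Δ/Δ overlapped Wt. As a log2 fold change E1C8Δ/Δ was at 0.59 (SE 0.14, adjusted p = 0.0211) for Msx1 and 0.95 (SE 0.12, adjusted p = 0.00271) for Msx2 (9.17% of 14227 genes called). In E1C5Δ/Δ it was 0.40 (SE 0.14, adjusted p = 0.226) and 0.091 (SE 0.12, adjusted p = 0.825), beside 1.19% called. Both mutants together gave 0.50 (SE 0.12, adjusted p = 0.0562) and 0.52 (SE 0.11, adjusted p = 0.0322), beside 1.98% called. The E1C8Δ/Δ call of Msx1 was lost with sex as a covariate, without the 2 smallest libraries and in the male libraries (0.45 to 0.72, adjusted p = 0.0535 to 0.169) and without Wt replicate 2 or E1C8Δ/Δ replicates 1 or 3 (adjusted p = 0.0520 to 0.0795), and that of Msx2 in the male libraries (0.89, adjusted p = 0.0872). The joint Msx2 call was lost with sex as a covariate, with doublets kept, with one cut for all libraries, with equal terciles, without the 2 smallest libraries and in the male libraries (0.42 to 0.56, adjusted p = 0.0569 to 0.286) and without Wt replicates 1 or 3, E1C8Δ/Δ replicates 2 or 3 or E1C5Δ/Δ replicates 1 or 2 (adjusted p = 0.0525 to 0.110). Joint Msx1 was called with DESeq2, without the filter on low counts, with doublets kept, with gates on all UMIs, with thinned counts and with scores without the changed genes (0.46 to 0.62, adjusted p = 0.00284 to 0.0404) and without E1C5Δ/Δ replicate 1 (adjusted p = 0.0488).

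The difference between the sides was itself tested, with library as a block. The effect of both mutants was larger in the posterior than in the anterior tercile by 0.55 (SE 0.085, adjusted p = 0.00207) for Msx1 and by 1.06 (SE 0.12, adjusted p = 3.96e-05) for Msx2 on the log2 scale, and 0.577% of 14553 genes were called. In E1C8Δ/Δ alone this difference was 0.49 (SE 0.10, adjusted p = 0.0278) for Msx1 and 0.80 (SE 0.13, adjusted p = 0.00542) for Msx2 (0.467% called). In E1C5Δ/Δ alone it was 0.62 (SE 0.096, adjusted p = 0.00184) and 1.32 (SE 0.13, adjusted p = 7.06e-06), beside 0.632% called. No call was made for E1C8Δ/Δ minus E1C5Δ/Δ, at -0.13 (SE 0.097, adjusted p = 0.931) for Msx1 and -0.51 (SE 0.13, adjusted p = 0.130) for Msx2 (0.220% called).

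Per library the ratio of posterior to anterior level was compared as well. For Msx1 it was 0.294, 0.340 and 0.361 in Wt, 0.544, 0.50 and 0.385 in E1C8Δ/Δ and 0.429, 0.550 and 0.529 in E1C5Δ/Δ. For Msx2 it was 0.259, 0.249 and 0.222 in Wt, 0.561, 0.443 and 0.386 in E1C8Δ/Δ and 0.468, 0.595 and 0.777 in E1C5Δ/Δ. Every mutant library had a higher ratio than every Wt library for both genes, and no ratio reached 1. The differences changed with the genes of the scores. Without the genes named as changed the posterior score holds Osr1 and Prdm1 alone. The loss of the changed genes and a coarser score cannot be told apart in that setting. With scores without the genes named as changed, the joint value was 0.27 (adjusted p = 0.625) for Msx1 and 0.56 (adjusted p = 0.243) for Msx2. That in E1C8Δ/Δ was 0.23 (adjusted p = 0.804) and 0.24 (adjusted p = 0.827). That in E1C5Δ/Δ was 0.31 (adjusted p = 0.628) and 0.87 (adjusted p = 0.0453), so that only Msx2 in E1C5Δ/Δ was called. For Msx1 the joint call was also lost without Wt replicate 1 (0.46, adjusted p = 0.0613), and that in E1C8Δ/Δ with gates on all UMIs (0.60, adjusted p = 0.0598) and without Wt replicate 1 or E1C8Δ/Δ replicates 1 or 2 (adjusted p = 0.120 to 0.262). The comparison of the alleles called Msx2 with thinned counts (-0.55, adjusted p = 0.00387) and without E1C5Δ/Δ replicate 1 (adjusted p = 0.000218).

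Along the proximal-distal axis calls against Wt were made in the distal tercile for both genes and in the central tercile for Msx2. In the distal tercile Msx1 was at 225, 188 and 192 CPM in Wt, 309.6, 287 and 315 CPM in E1C8Δ/Δ and 211, 260.4 and 287 CPM in E1C5Δ/Δ. Msx2 was at 21.1, 27.4 and 28.7 CPM in Wt, 65.9, 63.1 and 56.8 CPM in E1C8Δ/Δ and 28, 31.7 and 43.8 CPM in E1C5Δ/Δ. For both genes E1C8Δ/Δ lay above Wt without overlap, and E1C5Δ/Δ overlapped Wt by 1 library. In both mutants the log2 fold change was 0.48 (SE 0.095, adjusted p = 0.0241) for Msx1 and 0.87 (SE 0.13, adjusted p = 0.00597) for Msx2 (2.60% of 14061 genes called). In E1C8Δ/Δ it was 0.59 (SE 0.11, adjusted p = 0.00826) and 1.26 (SE 0.15, adjusted p = 0.00130), beside 11.0% called. In E1C5Δ/Δ neither passed, at 0.37 (SE 0.11, adjusted p = 0.136) and 0.47 (SE 0.15, adjusted p = 0.169), beside 1.49% called. The joint call of Msx1 was lost with sex as a covariate, without the 2 smallest libraries and in the male libraries (0.44 to 0.58, adjusted p = 0.0928 to 0.162) and without Wt replicates 2 or 3 or E1C8Δ/Δ replicate 3 (adjusted p = 0.0507 to 0.101). That of Msx2 was lost with sex as a covariate, without the 2 smallest libraries and in the male libraries (0.79 to 0.91, adjusted p = 0.0572 to 0.147). The E1C8Δ/Δ call of Msx1 was lost without the 2 smallest libraries and in the male libraries (0.55 to 0.69, adjusted p = 0.0538 to 0.166). The E1C8Δ/Δ call of Msx2 was lost in the male libraries (1.19, adjusted p = 0.0627). In E1C5Δ/Δ Msx1 was called with DESeq2 and with one cut for all libraries (0.38 to 0.49, adjusted p = 0.0175 to 0.0393). Msx2 was called there without the filter on low counts (0.47, adjusted p = 0.0380).

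In the central tercile Msx2 was at 23.3, 23.9 and 24.1 CPM in Wt, 57.6, 61.7 and 45.7 CPM in E1C8Δ/Δ and 23.6, 33.4 and 27.8 CPM in E1C5Δ/Δ, with E1C8Δ/Δ above Wt without overlap and E1C5Δ/Δ overlapping Wt. Msx1 was at 122, 77.7 and 67.5 CPM in Wt, 152, 129 and 115 CPM in E1C8Δ/Δ and 64.9, 114 and 113 CPM in E1C5Δ/Δ, and each mutant overlapped Wt. Msx2 had a log2 fold change of 0.75 (SE 0.12, adjusted p = 0.0131) in both mutants (1.67% of 14017 genes called), 1.201 (SE 0.13, adjusted p = 0.00124) in E1C8Δ/Δ (7.95% called) and 0.30 (SE 0.13, adjusted p = 0.335) in E1C5Δ/Δ (1.23% called). For Msx1 the same values were 0.37 (SE 0.19, adjusted p = 0.316), 0.56 (SE 0.22, adjusted p = 0.132) and 0.17 (SE 0.22, adjusted p = 0.785). The joint Msx2 call was lost with sex as a covariate, with doublets kept, without the 2 smallest libraries and in the male libraries (0.65 to 0.79, adjusted p = 0.0539 to 0.142), and that in E1C8Δ/Δ in the male libraries (0.99, adjusted p = 0.0649). Msx1 in E1C8Δ/Δ was called without the filter on low counts, with thinned counts and with one cut for all libraries (0.53 to 0.98, adjusted p = 0.0131 to 0.0374) and without Wt replicate 1 (adjusted p = 0.0470).

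In the proximal tercile no difference from Wt passed. Msx1 was at 105, 74.6 and 73.5 CPM in Wt, 129, 112 and 89.7 CPM in E1C8Δ/Δ and 81.1, 92.4 and 89 CPM in E1C5Δ/Δ, and Msx2 was at 40.3, 45.4 and 63.3 CPM in Wt, 61.8, 73.2 and 51.1 CPM in E1C8Δ/Δ and 31.6, 41.8 and 16.3 CPM in E1C5Δ/Δ. Each mutant overlapped Wt for both genes, the E1C8Δ/Δ libraries lay above all E1C5Δ/Δ libraries for Msx2, and the lowest Msx2 value belonged to E1C5Δ/Δ replicate 3. The log2 fold change of both mutants was 0.23 (SE 0.12, adjusted p = 0.398) for Msx1 and -0.18 (SE 0.25, adjusted p = 0.788) for Msx2 (0.400% called). In E1C8Δ/Δ it was 0.35 (SE 0.14, adjusted p = 0.177) and 0.31 (SE 0.29, adjusted p = 0.593), beside 3.94% called, and in E1C5Δ/Δ 0.10 (SE 0.14, adjusted p = 0.846) and -0.66 (SE 0.29, adjusted p = 0.430), beside 0.526% called. The test of distal against proximal gave 0.29 (SE 0.093, adjusted p = 0.199) for Msx1 and 1.10 (SE 0.27, adjusted p = 0.0664) for Msx2 in both mutants (0.912% called). It gave 0.91 (SE 0.31, adjusted p = 0.187) for Msx2 in E1C8Δ/Δ (1.16% called) and 1.28 (SE 0.31, adjusted p = 0.0466) in E1C5Δ/Δ (1.44% called), with no call in E1C8Δ/Δ. The call in E1C5Δ/Δ was lost with gates on all UMIs and with scores without the changed genes (1.22 to 1.33, adjusted p = 0.0594 to 0.115) and without Wt replicates 1, 2 or 3 or E1C8Δ/Δ replicates 1, 2 or 3 (adjusted p = 0.0580 to 0.135). Its size rests on E1C5Δ/Δ replicate 3, since without that library the value was 0.60 (adjusted p = 0.0186), and the log2 difference of the distal to the proximal level of Msx2 was 1.43 in that library against -0.17 and -0.40 in the other two. The joint value of Msx2 was called with doublets kept, with thinned counts and with one cut for all libraries (1.06 to 1.28, adjusted p = 0.000730 to 0.0306) and without E1C5Δ/Δ replicates 1, 2 or 3 (adjusted p = 0.000307 to 0.0209). That in E1C8Δ/Δ was called with thinned counts (0.96, adjusted p = 0.0394) and without E1C5Δ/Δ replicate 3 (adjusted p = 0.000192). For Msx1 the joint value was called with doublets kept and with one cut for all libraries (0.26 to 0.49, adjusted p = 0.0130 to 0.0348). That in E1C5Δ/Δ was called with one cut for all libraries (0.49, adjusted p = 0.0238).

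Distal posterior cells, where both terciles meet, had the lowest Msx2 of the 9 positions in Wt and rose in both mutants. Msx2 was at 11.5, 12.5 and 13.8 CPM in Wt, 78.1, 52.7 and 45.4 CPM in E1C8Δ/Δ and 28.9, 27 and 42.4 CPM in E1C5Δ/Δ. Every mutant library was higher than every Wt library, and every E1C8Δ/Δ library was higher than every E1C5Δ/Δ library. Msx1 was at 117, 104 and 145 CPM in Wt, 296, 219 and 233 CPM in E1C8Δ/Δ and 157, 212 and 241 CPM in E1C5Δ/Δ, again with no overlap between mutants and Wt. The joint log2 fold change was 1.81 (SE 0.17, adjusted p = 0.000105) for Msx2 and 0.91 (SE 0.13, adjusted p = 0.00316) for Msx1, beside 2.55% of 11753 genes called. For Msx2 it was 2.17 (SE 0.19, adjusted p = 5.72e-05) in E1C8Δ/Δ (9.56% called) and 1.45 (SE 0.18, adjusted p = 0.00120) in E1C5Δ/Δ (1.24% called). For Msx1 it was 1.03 (SE 0.15, adjusted p = 0.00207) and 0.79 (SE 0.15, adjusted p = 0.0190). The Msx2 calls of both mutants together and of E1C8Δ/Δ were kept under every alternative run, and the E1C5Δ/Δ call was lost in the male libraries (1.201, adjusted p = 0.0635). The Msx1 calls were lost with scores without the changed genes, at 0.99 (adjusted p = 0.147) for both mutants and 1.05 (adjusted p = 0.115) in E1C8Δ/Δ. That in E1C5Δ/Δ was lost with sex as a covariate, with doublets kept, with scores without the changed genes and in the male libraries (0.66 to 0.92, adjusted p = 0.0602 to 0.398) and without Wt replicates 1 or 2 or E1C5Δ/Δ replicates 2 or 3 (adjusted p = 0.0502 to 0.107). In these cells Shh was at 31.1 to 54 CPM in Wt, 29.6 to 73.9 CPM in E1C8Δ/Δ and 14.7 to 37.7 CPM in E1C5Δ/Δ. Hand2 was at 306 to 344 CPM in Wt, 265 to 365 CPM in E1C8Δ/Δ and 215 to 294 CPM in E1C5Δ/Δ, with every E1C5Δ/Δ library below every Wt library. Osr1 and Prdm1 are not given for these cells, so that the posterior score as a whole cannot be read from these values. The part of the score genes in the Msx differences was not tested.

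Over the 9 positions, the E1C8Δ/Δ libraries all lay above all Wt libraries at 4 positions for Msx1 (proximal posterior and the 3 distal ones) and at 7 for Msx2 (all but proximal anterior and proximal middle). The E1C5Δ/Δ libraries did so at 2 positions for Msx1 (distal middle and distal posterior) and at 2 for Msx2 (central posterior and distal posterior), and lay below all Wt libraries at 1, proximal middle for Msx2. The distal posterior position is thus in all 4 sets. Such separation was common among all genes of at least 5 CPM, since over the 9 positions 14.9% to 16.9% of them lay above Wt in every E1C8Δ/Δ library and 3.86% to 6.46% in every E1C5Δ/Δ library, and 7.22% lay below Wt in every E1C5Δ/Δ library at proximal middle. In proximal anterior cells, the Wt maximum of Msx2, the mean level was 78.3 ± 26 CPM in Wt, 92 ± 7.52 CPM in E1C8Δ/Δ and 43.5 ± 22.4 CPM in E1C5Δ/Δ, where each mutant overlapped Wt and all E1C8Δ/Δ libraries lay above all E1C5Δ/Δ libraries.

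**Figure D3:**
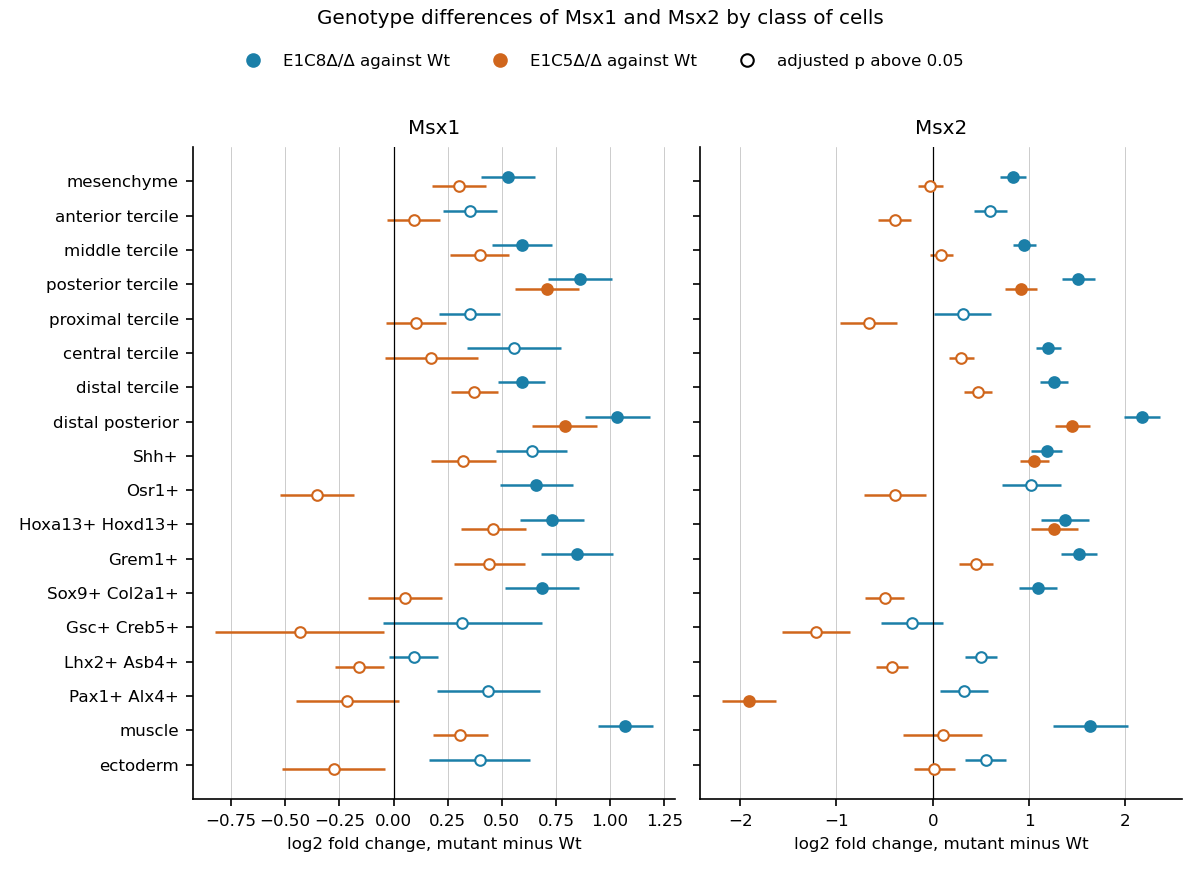
Log2 fold change of Msx1 (left) and Msx2 (right) in E1C8Δ/Δ and E1C5Δ/Δ against Wt, by class of cells, from edgeR with 1 SE to each side. Filled points have an adjusted p of 0.05 or less over all genes of the class, and Msx2 runs from 2.17 in E1C8Δ/Δ in distal posterior cells to -1.91 in E1C5Δ/Δ in Pax1+ Alx4+ cells.

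Gates on marker genes gave a second view without the ranks of the scores. Shh, Osr1, Pax1 and Alx4 are also genes of the scores, so that gates on them are not independent of the scores. The study names Shh, Hoxa13 and Hoxd13 as lower in the mutants and Lhx2 and Asb4 as higher. Gates on these genes may thus hold other cells in the mutants than in Wt. Cells with Shh UMIs, the polarizing region that signals from the posterior margin, numbered at least 26 in the 7 libraries used (Wt replicate 3 and E1C8Δ/Δ replicate 1 held 9 each and were left out). Msx2 there was at 44.6 and 45.4 CPM in Wt, 111 and 90.5 CPM in E1C8Δ/Δ and 94.4, 81.2 and 96.6 CPM in E1C5Δ/Δ, with all 5 mutant libraries above both Wt libraries. Msx1 was at 292 and 194 CPM in Wt, 362 and 375 CPM in E1C8Δ/Δ and 266, 281 and 332 CPM in E1C5Δ/Δ, and E1C5Δ/Δ overlapped Wt. The log2 fold change of Msx2 was 1.12 (SE 0.14, adjusted p = 0.0124) in both mutants (0.0621% of 9661 genes called), 1.18 (SE 0.16, adjusted p = 0.0132) in E1C8Δ/Δ (1.11% called) and 1.06 (SE 0.15, adjusted p = 0.0123) in E1C5Δ/Δ (0.135% called). Msx1 did not pass, at 0.48 (SE 0.14, adjusted p = 0.227) in both mutants, 0.64 (SE 0.16, adjusted p = 0.0813) in E1C8Δ/Δ and 0.32 (SE 0.15, adjusted p = 0.999) in E1C5Δ/Δ. The joint Msx2 call was lost with sex as a covariate and with thinned counts (0.98 to 1.11, adjusted p = 0.0509 to 0.296) and without E1C8Δ/Δ replicate 2 (adjusted p = 0.0502). The call in E1C8Δ/Δ was lost with sex as a covariate (1.06, adjusted p = 0.0576) and without E1C8Δ/Δ replicates 2 or 3 (adjusted p = 0.0552 to 0.0896). The call in E1C5Δ/Δ was lost with sex as a covariate and with thinned counts (0.89 to 0.96, adjusted p = 0.170 to 0.212) and without Wt replicate 1 (adjusted p = 0.0524). For Msx1 a call in E1C8Δ/Δ was made with DESeq2 and without the filter on low counts (0.59 to 0.64, adjusted p = 0.0137 to 0.0210) and without Wt replicate 1 (adjusted p = 0.0381). Shh itself was at 161 to 213 CPM in Wt, 161 to 181 CPM in E1C8Δ/Δ and 101 to 168 CPM in E1C5Δ/Δ in this gate.

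Cells with UMIs of both Hoxa13 and Hoxd13, the late distal Hox genes of the future hand plate, were 12 to 121 per library. They were 121 of 3832, 119 of 5474 and 21 of 613 mesenchymal cells in Wt. In E1C8Δ/Δ they were 12 of 422, 96 of 5866 and 70 of 4928, and in E1C5Δ/Δ 13 of 2728, 37 of 1609 and 54 of 6094. The part of this selection in the Msx differences was not tested. Msx1 was at 283, 206 and 344 CPM in Wt, 423, 459.6 and 427 CPM in E1C8Δ/Δ and 342, 357 and 414 CPM in E1C5Δ/Δ. The E1C8Δ/Δ libraries lay above Wt, and the lowest E1C5Δ/Δ library lay just under the highest Wt library. Msx2 was at 22.9, 17.3 and 36.7 CPM in Wt, 73.5, 62.5 and 44 CPM in E1C8Δ/Δ and 48.5, 40.9 and 71.2 CPM in E1C5Δ/Δ, with all 6 mutant libraries above Wt. The joint log2 fold change was 0.60 (SE 0.13, adjusted p = 0.0373) for Msx1 and 1.32 (SE 0.22, adjusted p = 0.00594) for Msx2 (0.785% of 9426 genes called). In E1C8Δ/Δ it was 0.73 (SE 0.15, adjusted p = 0.00859) and 1.37 (SE 0.25, adjusted p = 0.00491), beside 5.92% called, and in E1C5Δ/Δ 0.46 (SE 0.15, adjusted p = 0.377) and 1.26 (SE 0.24, adjusted p = 0.0251), beside 0.255% called. The joint call of Msx1 was lost with sex as a covariate, with doublets kept and in the male libraries (0.57 to 0.64, adjusted p = 0.0703 to 0.355) and without Wt replicates 1 or 2, E1C8Δ/Δ replicates 1, 2 or 3 or E1C5Δ/Δ replicate 1 (adjusted p = 0.0530 to 0.251). That of Msx2 was lost with sex as a covariate and in the male libraries (0.93 to 0.94, adjusted p = 0.213 to 0.250) and without Wt replicate 2 (adjusted p = 0.0675). In E1C8Δ/Δ the call of Msx1 was lost with sex as a covariate and in the male libraries (0.70, adjusted p = 0.0750 to 0.286) and without Wt replicate 2 or E1C8Δ/Δ replicate 2 (adjusted p = 0.0515 to 0.0551). The E1C8Δ/Δ call of Msx2 was lost with sex as a covariate and in the male libraries (0.98 to 1.00, adjusted p = 0.0723 to 0.288). That of Msx2 in E1C5Δ/Δ was lost with sex as a covariate, with thinned counts and in the male libraries (0.87 to 1.47, adjusted p = 0.0645 to 0.729) and without Wt replicates 1 or 2 or E1C5Δ/Δ replicate 3 (adjusted p = 0.0821 to 0.231).

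Cells with a UMI of Grem1 are the source of the antagonist, and in the mutants this gate holds a selection of cells, since Grem1 was lower. They numbered 25 to 992 per library. Msx1 was at 127, 80.9 and 106 CPM in Wt, 157, 197 and 200.01 CPM in E1C8Δ/Δ and 107, 153 and 154 CPM in E1C5Δ/Δ. Msx2 was at 11.5, 9.95 and 16.3 CPM in Wt, 35.8, 38.6 and 28.9 CPM in E1C8Δ/Δ and 12.1, 17.2 and 18.5 CPM in E1C5Δ/Δ. For both genes E1C8Δ/Δ lay above Wt without overlap and E1C5Δ/Δ overlapped Wt. In E1C8Δ/Δ the log2 fold change was 0.85 (SE 0.17, adjusted p = 0.0144) for Msx1 and 1.52 (SE 0.19, adjusted p = 0.00159) for Msx2 (5.41% of 12037 genes called). In E1C5Δ/Δ it was 0.44 (SE 0.16, adjusted p = 0.347) and 0.45 (SE 0.18, adjusted p = 0.418), beside 0.773% called. Both mutants together gave 0.64 (SE 0.15, adjusted p = 0.0558) and 0.98 (SE 0.16, adjusted p = 0.0113), beside 0.906% called. The Msx1 call in E1C8Δ/Δ was lost in the male libraries (0.99, adjusted p = 0.159) and without Wt replicate 2 or E1C8Δ/Δ replicates 2 or 3 (adjusted p = 0.0522 to 0.0860). That of Msx2 was lost in the male libraries (1.31, adjusted p = 0.0922). The joint Msx2 call was lost with sex as a covariate and in the male libraries (0.96, adjusted p = 0.120 to 0.215) and without Wt replicate 2 or E1C8Δ/Δ replicate 2 (adjusted p = 0.0512 to 0.0705). The joint Msx1 value was called with DESeq2, without the filter on low counts, with doublets kept, with gates on all UMIs and with thinned counts (0.62 to 0.91, adjusted p = 2.34e-06 to 0.0425) and without Wt replicate 1, E1C8Δ/Δ replicate 1 or E1C5Δ/Δ replicate 1 (adjusted p = 0.0337 to 0.0499). The gate itself moved the Msx2 values, since with gates on all UMIs the joint value was 1.77 (adjusted p = 0.00254) and that in E1C5Δ/Δ was called (1.55, adjusted p = 0.0133). Msx1 in E1C5Δ/Δ was called without the filter on low counts (0.44, adjusted p = 0.0195).

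Among Osr1+ cells Msx1 passed in E1C8Δ/Δ and in no other comparison with Wt. Cells with Osr1 and no Shh UMI, posterior by the study's markers, had low Msx levels in Wt. Msx1 there was at 40.6, 36.4 and 32.5 CPM in Wt, 69.4, 69.2 and 42.9 CPM in E1C8Δ/Δ and 22.3, 31.4 and 32.2 CPM in E1C5Δ/Δ, with E1C8Δ/Δ above and E1C5Δ/Δ below all Wt libraries. Msx2 was at 11.3 to 22.1 CPM in Wt, 18.9 to 39.99 CPM in E1C8Δ/Δ and 7.98 to 17 CPM in E1C5Δ/Δ, and each mutant overlapped Wt. As log2 fold change, E1C8Δ/Δ was at 0.66 (SE 0.17, adjusted p = 0.0397) for Msx1 and 1.02 (SE 0.31, adjusted p = 0.0663) for Msx2 (5.61% of 12895 genes called). In E1C5Δ/Δ both values were negative and neither passed, at -0.35 (SE 0.17, adjusted p = 0.558) and -0.39 (SE 0.32, adjusted p = 0.807), beside 0.512% called. Both mutants together gave 0.15 (SE 0.15, adjusted p = 0.675) and 0.31 (SE 0.27, adjusted p = 0.628), beside 0.729% called. The Msx1 call in E1C8Δ/Δ was lost with sex as a covariate, with doublets kept, without the 2 smallest libraries and in the male libraries (0.26 to 0.56, adjusted p = 0.0796 to 0.742) and without Wt replicates 1, 2 or 3 or E1C8Δ/Δ replicates 1 or 2 (adjusted p = 0.0690 to 0.180), and with gates on all UMIs it was 1.18 (adjusted p = 0.0423). Msx2 in E1C8Δ/Δ was called without the filter on low counts and with thinned counts (1.03 to 1.16, adjusted p = 1.03e-08 to 0.0228) and without Wt replicate 3 or E1C8Δ/Δ replicate 3 (adjusted p = 0.0259 to 0.0374).

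Cells with Sox9 and Col2a1, the condensing precursors of cartilage, were low for both genes as well. Msx2 was at 10.5, 12 and 14 CPM in Wt, 27.4, 31.9 and 19.5 CPM in E1C8Δ/Δ and 9.15, 9.46 and 6.95 CPM in E1C5Δ/Δ, with E1C8Δ/Δ above and E1C5Δ/Δ below all Wt libraries. Msx1 was at 34.1, 27.1 and 32.5 CPM in Wt, 56.4, 57.2 and 41.2 CPM in E1C8Δ/Δ and 23.8, 40.7 and 31.3 CPM in E1C5Δ/Δ, with E1C8Δ/Δ above Wt and E1C5Δ/Δ overlapping it. For E1C8Δ/Δ the log2 fold change was 0.69 (SE 0.17, adjusted p = 0.0472) for Msx1 and 1.09 (SE 0.19, adjusted p = 0.0144) for Msx2 (3.41% of 13214 genes called). In E1C5Δ/Δ neither passed, at 0.053 (SE 0.17, adjusted p = 0.965) and -0.50 (SE 0.20, adjusted p = 0.311), beside 1.63% called, nor in both mutants, at 0.37 (SE 0.15, adjusted p = 0.248) and 0.30 (SE 0.17, adjusted p = 0.423), beside 1.60% called. The E1C8Δ/Δ call of Msx1 was lost with sex as a covariate, without the 2 smallest libraries and in the male libraries (0.42 to 0.76, adjusted p = 0.122 to 0.627) and without Wt replicates 1, 2 or 3, E1C8Δ/Δ replicates 1 or 2 or E1C5Δ/Δ replicate 3 (adjusted p = 0.0502 to 0.227), and with gates on all UMIs it was 1.08 (adjusted p = 0.0114). That of Msx2 was lost with sex as a covariate and in the male libraries (0.71 to 0.96, adjusted p = 0.121 to 0.461) and without Wt replicate 2 or E1C8Δ/Δ replicates 1 or 2 (adjusted p = 0.0519 to 0.110).

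Cells with Gsc and Creb5, a proximal gate, showed no call. Msx1 was at 47.9, 37.9 and 87.6 CPM in Wt, 89.8, 76.5 and 51.1 CPM in E1C8Δ/Δ and 28.7, 79.9 and 21.3 CPM in E1C5Δ/Δ, and Msx2 at 25.7, 45.9 and 72.8 CPM in Wt, 44.9, 50.6 and 27.4 CPM in E1C8Δ/Δ and 18.2, 31.6 and 13.3 CPM in E1C5Δ/Δ. All groups overlapped for both genes. Msx1 had a log2 fold change of -0.058 (SE 0.33, adjusted p = 0.976) in both mutants (0.121% of 11540 genes called), 0.32 (SE 0.37, adjusted p = 0.750) in E1C8Δ/Δ (0.936% called) and -0.43 (SE 0.39, adjusted p = 0.878) in E1C5Δ/Δ (0.0347% called). For Msx2 it was -0.71 (SE 0.28, adjusted p = 0.422), -0.22 (SE 0.32, adjusted p = 0.814) and -1.21 (SE 0.35, adjusted p = 0.317). Without the filter on low counts Msx2 was called in E1C5Δ/Δ (-1.21, adjusted p = 1.39e-08) and in both mutants (-0.71, adjusted p = 0.000232). These fold changes are those of the main fit, and the libraries overlap. The calls thus rest on the estimate of spread in the fit without the filter and do not show that the groups lie apart.

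Cells with high Lhx2 and Asb4 lie at the periphery of the bud and had the highest Msx1 level of the mesenchymal gates in Wt. They were 610 of 3832, 654 of 5474 and 76 of 613 mesenchymal cells in Wt. In E1C8Δ/Δ they were 70 of 422, 997 of 5866 and 813 of 4928, and in E1C5Δ/Δ 249 of 2728, 270 of 1609 and 1404 of 6094. The part of this selection in the Msx values was not tested. Msx1 was at 453, 397 and 410.3 CPM in Wt, 424, 433 and 481 CPM in E1C8Δ/Δ and 394, 343 and 350.4 CPM in E1C5Δ/Δ, where E1C8Δ/Δ overlapped Wt and E1C5Δ/Δ lay just below it. Msx2 was at 68.1, 86.5 and 115 CPM in Wt, 111, 141 and 122 CPM in E1C8Δ/Δ and 63.6, 69.9 and 58.5 CPM in E1C5Δ/Δ, and both mutants overlapped Wt. No call was made in E1C8Δ/Δ, at 0.093 (SE 0.11, adjusted p = 0.662) for Msx1 and 0.50 (SE 0.17, adjusted p = 0.0894) for Msx2 (6.22% of 12979 genes called), or in E1C5Δ/Δ, at -0.16 (SE 0.11, adjusted p = 0.765) and -0.42 (SE 0.17, adjusted p = 0.492), beside 0.0385% called. Msx2 in E1C8Δ/Δ was called with DESeq2, without the filter on low counts, with gates on all UMIs and with thinned counts (0.50 to 0.69, adjusted p = 0.00514 to 0.0375) and without Wt replicate 3 (adjusted p = 0.0298).

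Cells with UMIs of Pax1 and Alx4, anterior proximal mesenchyme that includes the future shoulder girdle region, had less Msx2 in E1C5Δ/Δ. They numbered 16 to 302 per library. Msx2 was at 108, 119 and 174 CPM in Wt, 180.1, 158 and 161 CPM in E1C8Δ/Δ and 49.2, 36.4 and 16.1 CPM in E1C5Δ/Δ. All E1C5Δ/Δ libraries lay below all Wt libraries and the E1C8Δ/Δ libraries overlapped Wt. Msx1 was at 275, 169 and 158 CPM in Wt, 433, 211 and 217 CPM in E1C8Δ/Δ and 196, 173 and 136 CPM in E1C5Δ/Δ, where each mutant overlapped Wt and all E1C8Δ/Δ libraries lay above all E1C5Δ/Δ libraries. The log2 fold change of Msx2 in E1C5Δ/Δ was -1.91 (SE 0.28, adjusted p = 0.00891), where 0.116% of 10378 genes were called, against -0.21 (SE 0.24, adjusted p = 0.972) for Msx1. In E1C8Δ/Δ it was 0.33 (SE 0.25, adjusted p = 0.553) for Msx2 and 0.44 (SE 0.24, adjusted p = 0.381) for Msx1 (1.11% called). The E1C5Δ/Δ call of Msx2 was lost with sex as a covariate (-1.85, adjusted p = 0.148), without the 2 smallest libraries (-1.72, adjusted p = 0.108) and in the male libraries (-1.80, adjusted p = 0.261). The genes of the gate moved with it, with Pax1 at 176 to 408 CPM in Wt, 296 to 301 CPM in E1C8Δ/Δ and 95.9 to 141 CPM in E1C5Δ/Δ and Alx4 at 105 to 116 CPM in Wt, 108 to 124 CPM in E1C8Δ/Δ and 68.5 to 97.7 CPM in E1C5Δ/Δ. Of 3 genes of the proximal score, Irx3 was at 165 to 192 CPM in Wt, 148 to 191 CPM in E1C8Δ/Δ and 232 to 363 CPM in E1C5Δ/Δ, with every E1C5Δ/Δ library above every other library. Meis2 was at 519 to 629.6 CPM in Wt, 410.1 to 482 CPM in E1C8Δ/Δ and 515 to 657 CPM in E1C5Δ/Δ, and Pkdcc at 410.4 to 836 CPM in Wt, 616 to 709 CPM in E1C8Δ/Δ and 383 to 598 CPM in E1C5Δ/Δ. The part of these genes in the Msx2 difference was not tested.

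**Figure D4:**
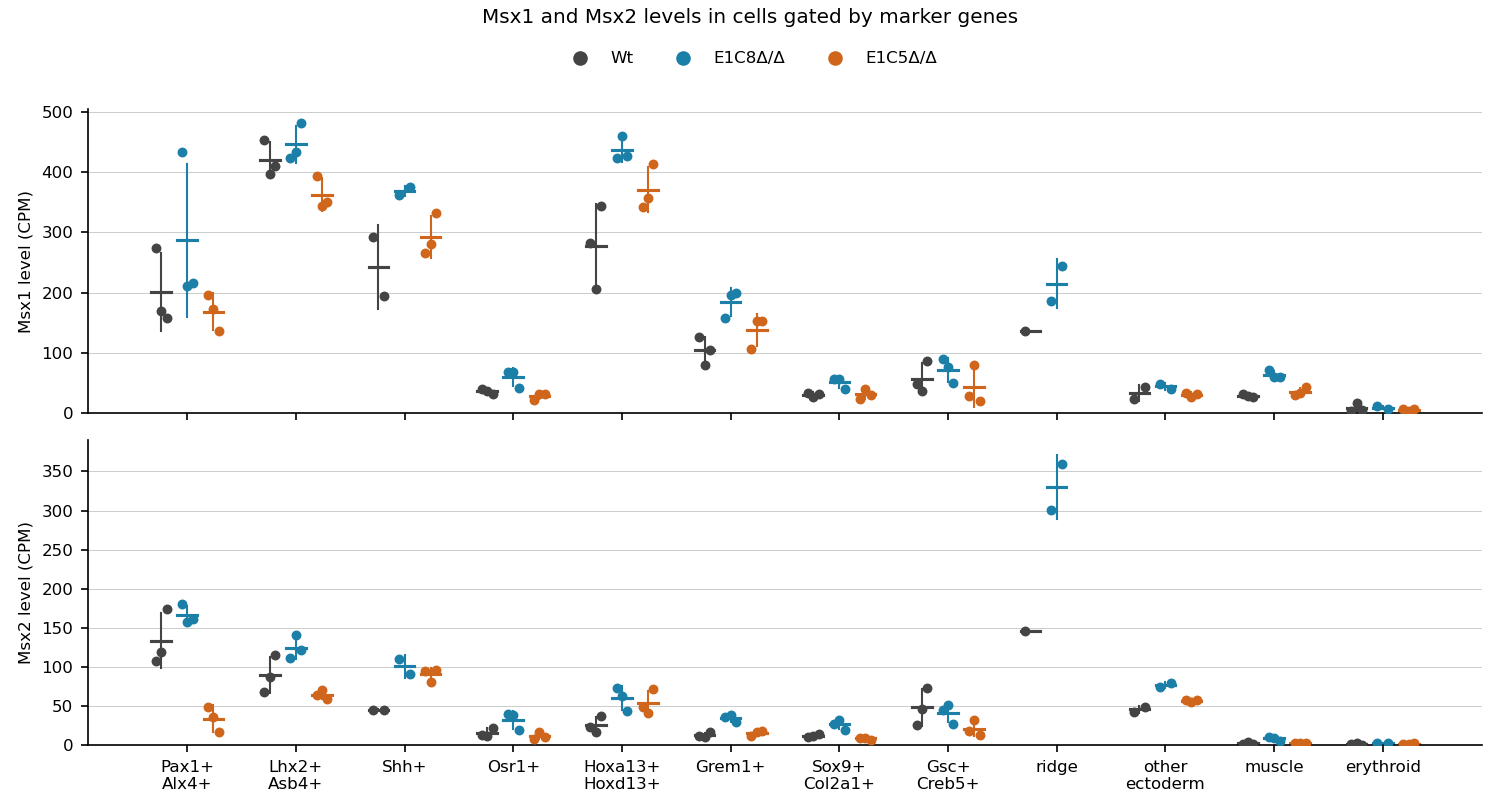
Msx1 (upper panel) and Msx2 (lower panel) levels in CPM per library in cells gated by marker genes. Points are libraries with at least 10 cells, bars are means and lines SD where a group has 2 or 3 libraries (the Wt ridge is 1 library), and Msx2 in Pax1+ Alx4+ cells is at 16.1 to 49.2 CPM in E1C5Δ/Δ against 108 to 174 CPM in Wt.

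A direct comparison of the alleles, which was added after the data had been seen, called Msx2 in 16 of 28 classes of cells, which share cells with each other, and Msx1 in 2, muscle and Osr1+ cells. In all of these calls E1C8Δ/Δ was higher. How many of all genes are called in as many classes was not counted. A gene called in mesenchyme can be called again in classes within it, so that the counts are not separate results. In mesenchyme E1C8Δ/Δ exceeded E1C5Δ/Δ by 0.86 (SE 0.13, adjusted p = 0.00621) for Msx2 and 0.23 (SE 0.12, adjusted p = 0.267) for Msx1 (9.26% of genes called). In the anterior tercile the difference was 0.99 (SE 0.17, adjusted p = 0.0106) for Msx2 and 0.26 (SE 0.12, adjusted p = 0.221) for Msx1 (6.04% called). In the posterior tercile it was 0.60 (SE 0.17, adjusted p = 0.0504) and 0.15 (SE 0.15, adjusted p = 0.559), beside 7.64% called. In distal posterior cells it was 0.72 (SE 0.17, adjusted p = 0.0251) and 0.24 (SE 0.15, adjusted p = 0.348), beside 6.32% called. This Msx2 call was lost with gates on all UMIs, with thinned counts, with scores without the changed genes, without the 2 smallest libraries and in the male libraries (0.15 to 0.72, adjusted p = 0.0710 to 0.825) and without E1C8Δ/Δ replicates 1 or 2 or E1C5Δ/Δ replicates 1 or 2 (adjusted p = 0.0684 to 0.0863). In the middle and the central tercile Msx2 differed by 0.86 (SE 0.12, adjusted p = 0.00378) and 0.90 (SE 0.13, adjusted p = 0.00452), beside 8.60% and 8.30% called, and these calls were lost in the male libraries (0.76 (adjusted p = 0.442) and 0.42 (adjusted p = 0.775)). The Msx2 value of the posterior tercile was near the threshold and was called with DESeq2, without the filter on low counts, with doublets kept, with gates on all UMIs, with thinned counts, with one cut for all libraries and with equal terciles (0.56 to 0.70, adjusted p = 0.00821 to 0.0448) and without Wt replicates 1 or 3, E1C8Δ/Δ replicate 3 or E1C5Δ/Δ replicate 2 (adjusted p = 0.0359 to 0.0473).

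In Osr1+ cells E1C8Δ/Δ exceeded E1C5Δ/Δ by 1.01 (SE 0.17, adjusted p = 0.00900) for Msx1 and 1.41 (SE 0.32, adjusted p = 0.0254) for Msx2 (5.92% called). The Msx1 call was lost with doublets kept and in the male libraries (0.41 to 0.62, adjusted p = 0.0559 to 0.892) and without E1C8Δ/Δ replicate 2 (adjusted p = 0.0542). That of Msx2 was lost without the 2 smallest libraries and in the male libraries (0.12 to 1.30, adjusted p = 0.0501 to 0.984) and without E1C8Δ/Δ replicates 1 or 2 or E1C5Δ/Δ replicates 1 or 3 (adjusted p = 0.0784 to 0.124). In Sox9+ Col2a1+ cells the alleles differed by 1.59 (SE 0.20, adjusted p = 0.00261) for Msx2 and 0.63 (SE 0.17, adjusted p = 0.0624) for Msx1 (3.31% called). The Msx2 call there was lost in the male libraries (1.00, adjusted p = 0.577), and Msx1 was called with DESeq2, without the filter on low counts, with gates on all UMIs and with thinned counts (0.63 to 1.05, adjusted p = 0.00174 to 0.0414) and without E1C5Δ/Δ replicate 2 (adjusted p = 0.0274).

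In Pax1+ Alx4+ cells the alleles differed by 2.23 (SE 0.28, adjusted p = 0.000971) for Msx2, and by 0.65 (SE 0.24, adjusted p = 0.215) for Msx1 (1.03% called). The Msx2 call in this gate was kept under every alternative run, whereas those of mesenchyme (0.48, adjusted p = 0.747) and the anterior tercile (0.67, adjusted p = 0.719) were lost in the male libraries, in which each allele has 1. Msx1 in Pax1+ Alx4+ cells was called without the filter on low counts (0.65, adjusted p = 0.00236). The anterior call was also lost without E1C8Δ/Δ replicate 2 (0.93, adjusted p = 0.0610). Both alleles share their Wt libraries in the comparisons given before, so that the values against Wt are not independent of each other.

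In ectoderm, gated by epithelial genes such as Epcam and Trp63, few cells were captured (13 to 134 in the 8 libraries used, with Wt replicate 3 left out for its 9). Msx1 was at 42.3 and 56.4 CPM in Wt, 78.1, 59 and 68.8 CPM in E1C8Δ/Δ and 48.5, 27.6 and 41 CPM in E1C5Δ/Δ. Msx2 was at 65.2 and 69.6 CPM in Wt, 78.1, 91.1 and 118 CPM in E1C8Δ/Δ and 75.8, 59.2 and 66.6 CPM in E1C5Δ/Δ. For both genes the E1C8Δ/Δ libraries lay above the 2 Wt libraries, and E1C5Δ/Δ overlapped Wt. No call was made for either gene. Both mutants differed from Wt by 0.060 (SE 0.21, adjusted p = 1) for Msx1 and 0.28 (SE 0.19, adjusted p = 1) for Msx2 (0.0190% of 10552 genes called). In E1C8Δ/Δ the values were 0.40 (SE 0.23, adjusted p = 0.672) and 0.55 (SE 0.21, adjusted p = 0.532), beside 0.0284% called, and in E1C5Δ/Δ -0.28 (SE 0.24, adjusted p = 1) and 0.017 (SE 0.21, adjusted p = 1), beside 0.00% called. In this last comparison edgeR called 0 genes, 390 had an unadjusted p under 0.05, and DESeq2 called 0. Prrx1, the mesenchymal marker, was at 37 to 44.7 CPM in Wt, 42.7 to 91.7 CPM in E1C8Δ/Δ and 24.8 to 44.6 CPM in E1C5Δ/Δ ectoderm, against 593 to 784 CPM in mesenchyme. Mesenchyme was gated by Prrx1, and cells that met both gates were left out, so that the gates set this gap in part. The part of Prrx1 in the Msx levels of ectoderm was not tested.

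The ridge, taken as ectoderm with at least 2 UMIs of Fgf8, stood above the rest of the ectoderm for both genes. Only 3 libraries held 10 or more ridge cells (20, 15 and 13). Msx1 in the ridge was at 136 CPM in Wt replicate 2 and 186 and 244 CPM in E1C8Δ/Δ replicates 2 and 3, while other ectoderm in those libraries was at 43.2, 48.8 and 40.7 CPM. Msx2 in the ridge was at 146 CPM in Wt replicate 2 and 301 and 359 CPM in E1C8Δ/Δ replicates 2 and 3, against 48.3, 74.4 and 79.5 CPM in other ectoderm. The ridge was higher in 3 of 3 libraries, by 2.14 (SE 0.17, adjusted p = 2.31e-30) for Msx1 and 2.02 (SE 0.16, adjusted p = 5.82e-32) for Msx2 on the log2 scale, with 8.67% of 10110 genes called. In a fit of 3 libraries the spread is taken largely from all genes together. These p-values and SE therefore do not measure the spread between the libraries. The 3 libraries pool genotypes, so that no genotype difference in the ridge was tested. The gated cells held UMIs of Sp8 and Rspo2 in all 9 libraries. They also held Trp63, which is itself a marker of the ectoderm gate and so is no separate check. Fgf9 was at 0 UMIs in Wt replicate 3. Fgf4, another ridge FGF, was at 12, 68 and 7 UMIs in Wt, 4, 1 and 0 UMIs in E1C8Δ/Δ and 0, 2 and 0 UMIs in E1C5Δ/Δ. Libraries with fewer than 10 ridge cells held 1 to 7 of them.

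Muscle progenitors, gated by genes such as Pax3 and Lbx1, migrate into the bud from the somites and had little of either gene in Wt. Msx1 was at 31.5, 29.2 and 27.1 CPM in Wt, 71.5, 59.7 and 60.9 CPM in E1C8Δ/Δ and 30.2, 34.2 and 43.5 CPM in E1C5Δ/Δ. The E1C8Δ/Δ libraries were above all others, and E1C5Δ/Δ overlapped Wt. Msx2 was at 1.55, 3.62 and 0.743 CPM in Wt, 10.9, 9.14 and 5.22 CPM in E1C8Δ/Δ and 2.88, 2.33 and 2.38 CPM in E1C5Δ/Δ, from 2 to 73 UMIs per library, and E1C8Δ/Δ again lay above both other groups. The log2 fold change in E1C8Δ/Δ was 1.07 (SE 0.13, adjusted p = 0.000657) for Msx1 and 1.64 (SE 0.39, adjusted p = 0.0442) for Msx2 (2.22% of 11867 genes called). In E1C5Δ/Δ it was 0.31 (SE 0.13, adjusted p = 0.442) and 0.10 (SE 0.41, adjusted p = 1), beside 1.01% called, and E1C8Δ/Δ exceeded E1C5Δ/Δ by 0.76 (SE 0.13, adjusted p = 0.00783) and 1.53 (SE 0.39, adjusted p = 0.0452), beside 3.19% called. The Msx1 call in E1C8Δ/Δ was kept under every alternative run. The Msx2 call in E1C8Δ/Δ was lost with sex as a covariate, with thinned counts, without the 2 smallest libraries and in the male libraries (1.18 to 1.46, adjusted p = 0.122 to 0.692) and without Wt replicates 1 or 3, E1C8Δ/Δ replicates 1 or 2 or E1C5Δ/Δ replicates 1 or 2 (adjusted p = 0.0507 to 0.200). Without Wt replicate 2 its value was 2.53 (adjusted p = 0.0107). Between the alleles the Msx2 call was lost with thinned counts, without the 2 smallest libraries and in the male libraries (1.15 to 1.64, adjusted p = 0.0716 to 0.991) and without E1C8Δ/Δ replicates 1 or 2 or E1C5Δ/Δ replicates 1, 2 or 3 (adjusted p = 0.0729 to 0.220). The Msx1 call was lost with thinned counts and in the male libraries (0.54 to 0.82, adjusted p = 0.133 to 0.795). Prrx1 in the muscle gate was at 38.3 to 90.2 CPM in Wt, 95 to 149 CPM in E1C8Δ/Δ and 70.04 to 95.6 CPM in E1C5Δ/Δ. Prrx1 was above all Wt libraries in E1C8Δ/Δ, as the Msx genes were, but unlike them E1C8Δ/Δ overlapped E1C5Δ/Δ. The part of Prrx1 was not tested.

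Red blood cells, which should lack both genes, give the level of free RNA. Msx1 was at 3.41 to 16.7 CPM and Msx2 at 0 to 2.95 CPM in erythroid cells, so that Msx2 in Wt muscle (1.97 ± 1.49 CPM), in E1C5Δ/Δ muscle (2.53 ± 0.301 CPM) and in Wt endothelium (1.11 ± 0.213 CPM, n = 2) was at or near this level. Msx2 in erythroid cells was at 0 to 1.98 CPM in Wt, 2.37 to 2.95 CPM in the 2 E1C8Δ/Δ libraries used and 1.18 to 2.70 CPM in E1C5Δ/Δ, and both E1C8Δ/Δ libraries lay above all Wt libraries, as in muscle. The part of free RNA in the Msx2 differences of muscle was not tested. Msx1 in endothelium was 20.1 ± 1.03 CPM in Wt (n = 2), 36.9 ± 10.2 CPM in E1C8Δ/Δ (n = 2) and 19.2 ± 2.77 CPM in E1C5Δ/Δ (n = 3).

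The share of cells in which the genes were detected was compared at equal depth, with each cell thinned to 10000 UMIs. In mesenchyme Msx1 was detected in 36.7%, 34.5% and 32.6% of cells in Wt, 53.6%, 49.1% and 45.7% in E1C8Δ/Δ and 38%, 45.4% and 45.3% in E1C5Δ/Δ. All mutant libraries were above all Wt libraries. Msx2 was detected in 14.2%, 16.7% and 18.4% in Wt, 32.2%, 29.8% and 25.1% in E1C8Δ/Δ and 17.2%, 19.5% and 18.1% in E1C5Δ/Δ, and E1C5Δ/Δ overlapped Wt. In the smallest library, E1C8Δ/Δ replicate 1 with 422 mesenchymal cells, the 95% Wilson interval of the Msx1 share was 48.8% to 58.3%, which covers counting error only. In erythroid cells, with a median of 18390 to 76444 UMIs before thinning, the shares were 3.85% to 11.96% for Msx1 and 0% to 3.80% for Msx2 over 8 libraries with enough cells, and mesenchymal cells had medians of 17258 to 49505 UMIs.

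The 6 mutant libraries were compared with the 3 Wt libraries by a two-sided exact permutation test of the difference in percentage points. For Msx1 in mesenchyme the difference was 11.6 points (exact permutation p = 0.0238, adjusted p = 0.0476, 6 of 6 libraries above all Wt). For Msx2 the difference was 7.19 points (exact permutation p = 0.0714, adjusted p = 0.0857, 4 of 6 libraries above all Wt), and for both genes in 1 cell 6.48 points (exact permutation p = 0.0476, adjusted p = 0.0635, 5 of 6 libraries above all Wt). For the posterior tercile it was 12 points (exact permutation p = 0.0238, adjusted p = 0.0476, 6 of 6 libraries above all Wt) for Msx1 and 9.75 points (exact permutation p = 0.0238, adjusted p = 0.0476, 6 of 6 libraries above all Wt) for Msx2. For both genes in 1 cell it was 7.68 points (exact permutation p = 0.0238, adjusted p = 0.0476, 6 of 6 libraries above all Wt) there. In the middle tercile the difference was 15.3 points (exact permutation p = 0.0238, adjusted p = 0.0476, 6 of 6 libraries above all Wt) for Msx1, above that of the posterior tercile. It was 7.95 points (exact permutation p = 0.0476, adjusted p = 0.0635, 5 of 6 libraries above all Wt) for Msx2 and 7.31 points (exact permutation p = 0.0238, adjusted p = 0.0476, 6 of 6 libraries above all Wt) for both genes in 1 cell. In the anterior tercile they were 7.64 points (exact permutation p = 0.0476, adjusted p = 0.0635, 5 of 6 libraries above all Wt) for Msx1 and 4.42 points (exact permutation p = 0.429, adjusted p = 0.429, 3 of 6 libraries above all Wt) for Msx2, and 4.69 points (exact permutation p = 0.381, adjusted p = 0.416, 3 of 6 libraries above all Wt) for both genes in 1 cell. The smallest p that 84 arrangements of 6 against 3 libraries allow is 0.0238, and adjustment was over 12 comparisons. On all UMIs the Msx1 share in Wt was 50.7%, 54.2% and 53.8% and the mutant excess 9.47 percentage points. On all UMIs none of the shares that passed at equal depth passed (adjusted p = 0.0571 to 0.0714).

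The number of UMIs per cell with the gene is given beside the shares. In mesenchyme a cell with Msx1 held on average 2.77 to 3.41 thinned UMIs of it in Wt, 3.26 to 3.57 in E1C8Δ/Δ and 2.99 to 3.20 in E1C5Δ/Δ, as ranges over 3 libraries. For Msx2 the ranges were 1.73 to 1.79 in Wt, 1.80 to 2.03 in E1C8Δ/Δ and 1.53 to 1.61 in E1C5Δ/Δ, with every E1C5Δ/Δ library below every Wt library. In the posterior tercile a cell with Msx1 held 1.97 to 2.36 in Wt, 2.54 to 2.92 in E1C8Δ/Δ and 2.35 to 2.81 in E1C5Δ/Δ. A cell with Msx2 there held 1.25 to 1.38, 1.35 to 1.64 and 1.32 to 1.47, and each mutant overlapped Wt. In the anterior tercile the ranges were 3.02 to 3.74, 3.48 to 3.90 and 3.19 to 3.35 for Msx1. For Msx2 they were 1.97 to 2.00, 2.25 to 2.31 and 1.60 to 1.84, with E1C5Δ/Δ below and E1C8Δ/Δ above all Wt libraries.

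The genes were often found in the same cells. Of mesenchymal cells with Msx2, 64.3% to 74.9% also held Msx1 in Wt, 73.5% to 74.7% in E1C8Δ/Δ and 67.4% to 78.9% in E1C5Δ/Δ. The share with both exceeded the product of the single shares 1.86 to 2.04 times in Wt, 1.39 to 1.64 times in E1C8Δ/Δ and 1.74 to 1.77 times in E1C5Δ/Δ at equal depth, and both genes vary with position. In Pax1+ Alx4+ cells the same factor was 0.808 to 1.04 in Wt, 0.960 to 1.06 in E1C8Δ/Δ and 0.857 to 0.942 in E1C5Δ/Δ, around the value of 1 that independent detection gives. The share of these cells with Msx2 was 46.7% to 57.1% in Wt, 55.6% to 62.5% in E1C8Δ/Δ and 11.5% to 32.4% in E1C5Δ/Δ, with E1C5Δ/Δ below both other groups.

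The UMIs of Msx2 per UMI of Msx1 show whether the genes changed by different amounts. In mesenchyme this ratio was 0.186, 0.284 and 0.336 in Wt, 0.310, 0.372 and 0.284 in E1C8Δ/Δ and 0.223, 0.224 and 0.178 in E1C5Δ/Δ. The 6 mutant libraries and 3 Wt libraries differed by -0.017 on the log2 scale (two-sided exact permutation p = 1). The E1C8Δ/Δ libraries lay above all E1C5Δ/Δ libraries, by 0.63 on the log2 scale (exact permutation p = 0.1, the smallest that 3 against 3 allows). The ratio in the posterior tercile was 0.188, 0.260 and 0.266 in Wt, 0.382, 0.384 and 0.337 in E1C8Δ/Δ and 0.285, 0.279 and 0.250 in E1C5Δ/Δ, and E1C8Δ/Δ lay above both other groups. In Pax1+ Alx4+ cells it was 0.392, 0.706 and 1.10 in Wt, 0.416, 0.748 and 0.745 in E1C8Δ/Δ and 0.250, 0.210 and 0.118 in E1C5Δ/Δ, and E1C5Δ/Δ lay below both other groups.

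The Wt patterns of other genes were ranked by their Pearson correlation with each Msx gene over the 9 positions (log2(CPM + 1), mean of 3 Wt libraries, 6063 genes of at least 20 CPM). Those most like Msx1 were Ndfip1, an adaptor of ubiquitin ligases (r = 0.98), the kinase Nek7 (0.96), Vdac1, a channel of the outer mitochondrial membrane (0.96), Cxxc5, a zinc-finger protein that responds to BMP (0.96), and Spire1, an actin nucleator (0.96). Those most like Msx2 were Eif4b, a translation initiation factor (0.98), BC005561 (0.97), Rnf169, a ubiquitin-related DNA damage protein (0.97), Emilin1 of the extracellular matrix (0.96) and Twist1, a bHLH factor of limb mesenchyme (0.96). Msx1 and Msx2 had r = 0.50 with each other, and Msx2 ranked 1186 among the genes compared with Msx1. The 9 positions share libraries and cuts, so that these values only describe the pattern.

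Genes of the BMP pathway were followed by 6 lists of 37 genes, chosen with earlier results of these data known. In mesenchyme with both mutants, 0 of 6 ligands, 0 of 6 receptors and 0 of 4 signal transducers passed the edgeR test, beside 2.05% of all genes, and their median log2 fold changes were -0.19, -0.026 and -0.057, beside -0.013 over all genes. At an unadjusted p under 0.05 these counts were 3, 1 and 1, and with DESeq2 1 ligand passed, Bmp2, which was lower. Bmp4, a ligand made in the mesenchyme that was named after its values were seen, was at 82.2, 74.8 and 80.1 CPM in Wt, 70.3, 76.6 and 71.6 CPM in E1C8Δ/Δ and 65.4, 65 and 68 CPM in E1C5Δ/Δ, with a log2 difference of -0.17 (SE 0.066, adjusted p = 0.199). Of 7 feedback and target genes 1 passed, Bambi, a decoy receptor that BMP induces (median of the list 0.18). It was at 42.3, 36.6 and 39 CPM in Wt, 70.6, 61.1 and 61 CPM in E1C8Δ/Δ and 38.2, 41 and 44.8 CPM in E1C5Δ/Δ, with a joint difference of 0.41 (SE 0.070, adjusted p = 0.0179). The E1C8Δ/Δ libraries lay above all others. At an unadjusted p under 0.05 there were 2 target genes, and DESeq2 called 2, Id3 and Bambi, as higher. Of 8 secreted antagonists 0 rose and 2 fell (median -0.45). They were Grem1, whose own enhancers are deleted, so that its fall belongs to the design, and Twsg1, a BMP-binding protein (-0.33, SE 0.064, adjusted p = 0.0288). At an unadjusted p under 0.05 there were 5, and DESeq2 called 4 as lower, Grem1, Smoc1, Fst and Twsg1. Of the 6 Dlx genes, homeobox genes whose proteins bind Msx proteins, 5 were tested and 0 passed by edgeR (median 0.12), with 0 at an unadjusted p under 0.05 and 0 by DESeq2. This joint value averages medians of opposite sign, 0.73 in E1C8Δ/Δ and -0.27 in E1C5Δ/Δ. In neither mutant did a Dlx gene pass by edgeR, with 3 and 2 at an unadjusted p under 0.05. DESeq2 called 0 in E1C8Δ/Δ and 2 in E1C5Δ/Δ, Dlx5 and Dlx6, as lower.

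The lists were then read by allele. In E1C8Δ/Δ mesenchyme 2 of 7 target genes rose, Id3, an inhibitor of bHLH factors (0.72, SE 0.11, adjusted p = 0.00505), and Bambi (0.68, SE 0.080, adjusted p = 0.00187), and 3 of 8 antagonists fell, Grem1, Smoc1 (-0.86, SE 0.14, adjusted p = 0.00747) and Twsg1, where 9.10% of all genes were called. In E1C5Δ/Δ, with 1.34% of all genes called, 0 of 7 target genes passed (2 at an unadjusted p under 0.05, 0 by DESeq2) and 1 of 8 antagonists fell, Fst, which binds activins and some BMPs (-2.59, SE 0.55, adjusted p = 0.0453). Grem1 itself was at -0.77 (SE 0.17, adjusted p = 0.0526) in E1C5Δ/Δ and missed the threshold with edgeR, whereas DESeq2 called 3 antagonists, Grem1, Sostdc1 and Fst, as lower. Between the alleles 9.26% of all genes were called. E1C8Δ/Δ exceeded E1C5Δ/Δ in 4 of 7 target genes, Id2, Id3, Smad6 and Bambi, with log2 differences of 0.50, 0.65, 0.40 and 0.56. It exceeded E1C5Δ/Δ in 3 of 5 tested Dlx genes, Dlx2, Dlx5 and Dlx6, by 1.00, 1.72 and 2.14, and in the antagonists Nog and Sostdc1 by 0.71 and 1.34. Grem1 and Smoc1 were lower in E1C8Δ/Δ than in E1C5Δ/Δ, at -0.75 and -0.74. These are RNA levels, and the study reports the other order for the protein, with more GREM1 left in E1C8Δ/Δ. Dlx5 was at 3.17, 3.14 and 5.62 CPM in Wt, 4.31, 6.27 and 6.05 CPM in E1C8Δ/Δ and 1.05, 2.00 and 1.89 CPM in E1C5Δ/Δ, a difference between the alleles of 1.72 (SE 0.28, adjusted p = 0.00699). In the posterior tercile with both mutants 2 of 7 target genes rose, Id3 (0.61, SE 0.099, adjusted p = 0.0117) and Bambi (0.55, SE 0.098, adjusted p = 0.0203), beside 1.51% of all genes called. Of 7 tested antagonists 1 fell, the targeted gene Grem1, by 1.44 (SE 0.17, adjusted p = 0.00300) on the log2 scale. No gene of the other 4 lists passed. In E1C8Δ/Δ alone 3 target genes rose and 3 antagonists fell (8.21% called). In E1C5Δ/Δ alone 0 of 7 and 0 of 7 passed (0.880% called), whereas DESeq2 called 3 antagonists, Grem1, Sostdc1 and Fst, as lower.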

How the data were processed

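Single-cell libraries were made with the 10x Genomics 3' chemistry. Per the labels and the study's methods, the authors aligned reads with Cell Ranger 6.0.1 to mm10 and deposited raw UMI counts per gene and barcode, which were used here as deposited. The submitters' processing notes also name Seurat 4.3.0.1, which made no value used here. Barcodes with over 2500 genes, under 200000 UMIs and under 10% mitochondrial UMIs were kept, and cells called as doublets by their simulated neighbours (12 to 2068 per library) were left out. Each cell was thinned to 10000 UMIs for gates, position scores and shares, and shallower cells were left out. All UMIs were then summed per library and class of at least 10 cells. Genes on X and Y (1809) and 4 transgene features were left out of the tests.

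Sums were tested with edgeR 4.0.16 (filterByExpr, TMM factors, quasi-likelihood F test, all 9 libraries in one fit) in R 4.3.3, with Benjamini-Hochberg adjustment over all genes of a class. Standard errors are the log2 fold change divided by the square root of F. The study tested single cells by rank-sum test, whereas libraries are the replicates here. Shares and ratios were tested by exact permutation of libraries. On counts simulated for mesenchyme with both mutants against Wt (16104 genes, 200 changed by a log2 fold of 1) the test recovered 76% of changed genes with 9 false calls. Alternatives were DESeq2 1.42.0, RLE factors, no filter, the replicate block, sex as a covariate, doublets kept, other gates, counts and scores, and each library left out. Without the filter, genes with few counts enter the estimate of spread that all genes share, so that its p-values are to be read with caution. The comparison of E1C8Δ/Δ with E1C5Δ/Δ, the fits per mutant between positions, the male libraries, equal terciles and the fit without the 2 smallest libraries were added after the data had been seen. Genes named by rule are Msx1 and Msx2 in every class, Grem1, listed pathway genes that passed in mesenchyme, and the 5 genes most like each Msx gene over the 9 Wt positions, without those of the position scores. Marker genes of gates, scores and cell types are given beside the results they touch, and Bmp2 and Bmp4 were named after their values were seen. The members and lists were chosen with earlier results of these data known. Intervals cover counting error only.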

Additional observations from a re-analysis of the deposited data

Results flagged for a closer look

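The effect of the mutations differed between positions by the interaction test of edgeR, with Benjamini-Hochberg adjustment over all genes. Between the posterior and the anterior tercile it was larger posteriorly by 0.55 (SE 0.085, adjusted p = 0.00207) for Msx1 and 1.06 (SE 0.12, adjusted p = 3.96e-05) for Msx2 with both mutants. In E1C8Δ/Δ the difference was 0.49 (SE 0.10, adjusted p = 0.0278) for Msx1 and 0.80 (SE 0.13, adjusted p = 0.00542) for Msx2, and in E1C5Δ/Δ it was 0.62 (SE 0.096, adjusted p = 0.00184) for Msx1 and 1.32 (SE 0.13, adjusted p = 7.06e-06) for Msx2. With scores that leave out genes named as changed, E1C8Δ/Δ was at 0.23 (adjusted p = 0.804) and 0.24 (adjusted p = 0.827) and E1C5Δ/Δ at 0.31 (adjusted p = 0.628) and 0.87 (adjusted p = 0.0453), so that Msx2 in E1C5Δ/Δ was the one value still called. Between the distal and the proximal tercile 1 difference passed, Msx2 in E1C5Δ/Δ, larger distally by 1.28 (SE 0.31, adjusted p = 0.0466), and without E1C5Δ/Δ replicate 3 it was 0.60 (adjusted p = 0.0186). This call was kept in only 3 of the 9 fits without one library, with an adjusted p of up to 0.135. The share of cells near the cuts of the anterior-posterior score was lowest in E1C5Δ/Δ replicate 1 (8.10%) and highest in E1C8Δ/Δ replicate 1 (22.7%), and its part in these differences was not tested.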

How the results depend on the processing

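Over 153 results and 2977 alternative fits, most kept their direction and their side of the threshold. Results that never passed count as kept here, so that this says little of the calls themselves. Without one library, Msx1 in the posterior tercile of E1C5Δ/Δ kept its call in 1 of 9 fits. The joint call of Msx2 in that tercile was kept in 9 of 9. The joint log2 fold change in mesenchyme passed for Msx1 with DESeq2 (0.42 (adjusted p = 0.00817)), without the filter on low counts (0.42 (adjusted p = 0.0427)) and with thinned counts (0.53 (adjusted p = 0.0329)), and over the fits without one library it ran from 0.33 to 0.55. For Msx2 it passed with DESeq2 (0.41 (adjusted p = 0.0279)) and thinned counts (0.49 (adjusted p = 0.0426)). In the posterior tercile it no longer passed with sex as a covariate, at 0.79 (adjusted p = 0.128) for Msx1 and 1.19 (adjusted p = 0.0790) for Msx2, with scores without the changed genes, at 0.69 (adjusted p = 0.202) and 0.76 (adjusted p = 0.113), in the male libraries, at 0.77 (adjusted p = 0.154) and 1.16 (adjusted p = 0.0768), and for Msx1 without the 2 smallest libraries (0.74 (adjusted p = 0.0805)), with 0.71 to 0.85 over the fits without one library. The difference between the posterior and anterior effects was 0.27 (adjusted p = 0.625) for Msx1 and 0.56 (adjusted p = 0.243) for Msx2 with scores without the changed genes, and without one library it was 0.46 to 0.62 for Msx1. The cause was not tested. The sign of the joint Msx2 value in the anterior tercile turned without Wt replicate 1 (-0.039 to 0.26 over the 9 fits).

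The mutant excess in the share of mesenchymal cells with Msx1 was 9.47 (adjusted p = 0.0571) percentage points on all UMIs and 10.1 to 13.2 without one library, where fewer arrangements limit the smallest p. That of both genes was 5.22 to 7.69 without one library. The log2 ratio of Msx2 to Msx1 ran from -0.26 to 0.17.

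Signs also turned for other values, none of which passed in the fit that turned it. For Msx2 in E1C5Δ/Δ mesenchyme they were 0.021 with sex as a covariate, 0.050 with thinned counts, 0.076 without the 2 smallest libraries, 0.20 in the male libraries and -0.15 to 0.075 without one library. For Msx2 in E1C5Δ/Δ muscle they were -0.37 with sex, -0.19 with gates on all UMIs, -0.17 with thinned counts, -0.069 without the 2 smallest libraries and -0.19 to 1.00 without one. In the proximal tercile Msx2 was 0.0080 with sex, 0.016 without the 2 smallest and -0.34 to 0.0016 without one library. In ectoderm Msx1 was -0.024 with sex, -0.050 with thinned counts and -0.18 to 0.38 without one library for both mutants, and -0.53 to 0.043 for E1C5Δ/Δ. Msx2 there was -0.014 with thinned counts for both mutants, and for E1C5Δ/Δ -0.16 with gates on all UMIs, -0.44 with thinned counts and -0.12 to 0.15 without one library. Msx1 in Pax1+ Alx4+ cells was -0.024 in E1C8Δ/Δ without the 2 smallest libraries and -0.40 to 0.060 in E1C5Δ/Δ without one. In Gsc+ Creb5+ cells joint Msx1 was 0.29 with sex, 0.18 with doublets kept, 0.33 with thinned counts, 0.23 without the 2 smallest, 0.26 in the male libraries and -0.38 to 0.29 without one, and in the male libraries -0.10 in E1C8Δ/Δ and 0.62 in E1C5Δ/Δ. Msx2 in E1C8Δ/Δ there was 0.65 with gates on all UMIs, 0.089 with thinned counts, 0.074 without the 2 smallest and -0.56 to 0.10 without one. In E1C5Δ/Δ, Msx2 was 0.24 in the male libraries in Osr1+ cells and -0.012 to 0.20 without one library in the middle tercile, and Msx1 -0.16 to 0.20 in Sox9+ Col2a1+ cells. Between the alleles Msx1 in the male libraries was -0.016 in Sox9+ Col2a1+ cells and -0.026 in the central tercile. Between the alleles Msx1 in the posterior tercile was -0.26 in the male libraries and -0.0056 to 0.26 without one library, and its posterior against anterior difference was 0.0068 with gates on all UMIs, 0.076 with one cut for all libraries and -0.26 to 0.022 without one library.

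With the replicate block, 107 of 122 results kept direction and side of the threshold, 14 no longer passed and 1 turned its sign, Msx2 in E1C5Δ/Δ ectoderm at -0.071. Those that no longer passed had adjusted p of 0.107 to 0.138 in the 3 Shh+ comparisons of Msx2, 0.0712 to 0.107 for both genes in the posterior tercile of E1C5Δ/Δ, 0.0603 to 0.0959 for Msx1 in both mutants and Msx2 in E1C5Δ/Δ in Hoxa13+ Hoxd13+ cells, 0.0619 for Msx1 in E1C8Δ/Δ mesenchyme, 0.0638 for Msx1 in the distal tercile of both mutants and 0.0666 for Msx2 in muscle between the alleles. In Osr1+ cells they were 0.0651 to 0.0698, for Msx1 in E1C8Δ/Δ and Msx2 between the alleles, and for Msx1 in E1C8Δ/Δ 0.0927 in Sox9+ Col2a1+ cells and 0.0527 in the middle tercile. The log2 fold changes of these 14 moved by at most 0.109 under the block. Same-numbered libraries of different genotypes had correlations of -0.153 to 0.094 over 9 pairs, and differently numbered ones of -0.159 to 0.260. These are correlations of deviations from group means of 3 libraries, which constrain each other. They cannot tell whether same-numbered libraries share more than a number. The genotype difference between ridge and other ectoderm was not run, since too few libraries held 10 ridge cells. The fits in the male libraries rest on 1 library of each mutant, which is assumed to vary like Wt.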
